A study of Homo sapiens with 5 samples.

Results

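Promoter binding of MYC and E2F1 was compared gene by gene in LM2 cells, which were derived from MDA-MB-231 breast cancer cells and spread preferentially to the lung. Chromatin of LM2 cells, untreated according to the labels, was immunoprecipitated with antibodies to either factor, and both libraries were set against the same input DNA. For every protein-coding gene, the peak with the highest fold enrichment of each factor was taken among the peaks that overlapped a window from 2 kb upstream to 2.5 kb downstream of any of its TSSs (hg19). Of 20098 genes on chromosomes 1 to 22 and X, 3578 had a promoter peak of both factors, and these are the shared promoters described here. In all, 12321 genes had an E2F1 promoter peak and 3587 a MYC promoter peak, 9 of these without E2F1, and 7768 genes had neither. These counts correspond to background shares as follows: 61.3% of all protein-coding genes had an E2F1 promoter peak, 17.8% had a MYC promoter peak, and 29.0% of the genes with an E2F1 promoter peak also had one of MYC. The lists held 36933 peaks of E2F1 and 4867 of MYC, called at a q-value cutoff of 0.01, from 18056168 and 23853621 tags after removal of duplicates, respectively. With 1 library per factor there is no replicate check, and all differences below are differences between these libraries. The 95% intervals given cover counting error only. A gene without a MYC peak is a gene at which none was called at this cutoff.

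MYC is a basic helix-loop-helix protein that binds DNA with its partner MAX, preferentially at the E-box, and is best known for its place at genes for ribosomes, translation and metabolism. E2F1 binds DNA with a DP partner and is best known for driving the genes of the G1/S transition and DNA replication, under restraint by the retinoblastoma protein. Both factors are found at the CpG-rich promoters of active genes, and their known target lists overlap, for instance at genes of nucleotide synthesis. Mitotic genes are known for a different promoter architecture, with CCAAT boxes bound by NF-Y and the cell cycle element TTTGAA bound by MuvB complexes.

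The sequences below are examples of the motifs counted further on, and, except in the second set, were chosen because they hold a match. They were read from hg19 on the strand of the gene, from within 50 bp of the summit of the strongest peak, and matches are in capitals. NOP14, NCL, EBNA1BP2, APRT, RPL29, CLSPN, RPA3 and SPC25 are on the minus strand and the others on the plus strand. The first set gives the E-box, CACGTG, at the MYC summits of genes for ribosome biogenesis and nucleotide synthesis with a high fold enrichment of both factors. GNL3 (chr3:52720042-52720070) encodes nucleostemin, and its summit lay in an exon 6 bp downstream of the TSS. NOP14 (chr4:2965101-2965129) encodes a factor of the small ribosomal subunit, and its summit lay 1 bp upstream of the TSS. NCL (chr2:232328494-232328522) encodes nucleolin, and its summit lay 128 bp upstream of the nearest TSS, in an exon of the annotation. EBNA1BP2 (chr1:43637902-43637930) encodes a factor of the large subunit, with a summit in an exon 5 bp downstream of the TSS, and its window also holds an E2F motif. APRT (chr16:88877880-88877980) encodes the adenine salvage enzyme, and the MYC summit lay in an exon 358 bp downstream of the TSS. CAD (chr2:27440336-27440364) encodes the enzyme that starts pyrimidine synthesis, and its summit lay in an exon 78 bp downstream of the TSS.
GNL3: ggcttcagttcaCACGTGgcgccagcgga
NOP14: ccgcggcccggCACGTGtcttagggtagc
NCL: tgtgtttcgggCACGTGgtggcctaccag
EBNA1BP2: cgattcggtggCACGTGgagccacggcgt
APRT: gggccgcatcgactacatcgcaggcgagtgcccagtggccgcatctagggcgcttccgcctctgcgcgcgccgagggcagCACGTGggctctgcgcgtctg
CAD: gcgcgccgtcctCACGTGgttccagtgga

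The second set shows MYC summits at the ribosomal protein genes with the highest MYC fold enrichment among the E2F1-strong genes, RPL5 (chr1:93297737-93297765), RPL29 (chr3:52029807-52029835) and RPS15 (chr19:1438482-1438510). All lie in exons within 85 bp downstream of a TSS. The capital marks the summit base, because none of these 3 windows holds an E-box or an E2F motif on either strand.
RPL5: gccagcctagggccCgtctcgcgcgtcgc
RPL29: acttacgggtggcgGcggggcgcgggctg
RPS15: tctgaccgtctcgcGggggccgcagttcg

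The third set comes from E2F1 summits of genes that had a strong E2F1 peak and no MYC peak. At genes of DNA replication the capitals mark E2F motifs, which were searched as TTTCCCGC, TTTCGCGC, TTTGCCGC and TTTGGCGC on both strands. GINS1 (chr20:25388303-25388331) encodes a subunit of the replicative helicase complex, as does MCM5 (chr22:35795907-35796007), in which 2 overlapping matches on opposite strands form a single run of capitals. CLSPN (chr1:36235566-36235594) encodes the checkpoint mediator claspin and RPA3 (chr7:7680063-7680091) a subunit of the single-strand binding protein. H2AC12 (chr6:27114830-27114884) is a histone gene whose summit lay 5 bp upstream of the TSS. At genes of mitosis the capitals mark CCAAT and TTTGAA in either orientation, and the windows hold no E2F motif. KIF4A (chrX:69509884-69509953), KIF11 (chr10:94352799-94352886) and SPC25 (chr2:169746926-169746954) encode 2 kinesins and a kinetochore protein, with summits 20, 38 and 20 bp upstream of a TSS. INCENP (chr11:61891461-61891489), which encodes a subunit of the Aurora B complex, has its summit 5 bp downstream of the TSS.
GINS1: agctttgttcgGCGCCAAAgcgcggagcg
MCM5: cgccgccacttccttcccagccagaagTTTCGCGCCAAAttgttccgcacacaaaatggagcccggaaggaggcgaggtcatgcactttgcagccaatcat
CLSPN: ctctggctggGCGGGAAAgcaagaacagc
RPA3: cgtccgtgggTTTCCCGCcagccgcagtc
H2AC12: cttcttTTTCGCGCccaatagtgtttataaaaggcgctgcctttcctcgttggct
KIF4A: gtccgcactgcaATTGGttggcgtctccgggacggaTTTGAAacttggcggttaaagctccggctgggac
KIF11: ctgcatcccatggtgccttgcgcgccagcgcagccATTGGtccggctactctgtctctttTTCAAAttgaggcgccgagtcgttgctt
SPC25: agtgcactaggTTTGAAatcggaaagttg
INCENP: tgagccttcagtTTTGAAaatcatagttt

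Strong E2F1 promoters carried MYC far more often than weak ones, whereas the strength of MYC, where it had a peak, followed that of E2F1 only loosely. Fold enrichment is the ratio of the fragment pileup at the summit to the local input background, and at the shared promoters its median was 7.22 for MYC (interquartile range 6.003 to 8.97, range 2.996 to 30.2) and 32.1 for E2F1 (22.8 to 42.1, range 3.25 to 85.4). Spearman's rank correlation between the factors was 0.19 over these 3578 genes. The points share the input library, their base composition and, for divergent genes, the peaks themselves, so the correlation is a description without a test. With the strongest peaks chosen and ranked by pileup, which is not divided by the input, the correlation was 0.36, and with genes without a MYC peak set to 0 it was 0.42. Leaving out the genes of ribosomal proteins and ribosome biogenesis gave 0.18. The top quartiles of both factors shared 306 genes, which were 33.7% of the top quartile of MYC. By definition, the top quartile of E2F1 holds 25% of all shared promoters. Fra-1, the AP-1 subunit profiled in the same cells, had a rank correlation of 0.02 with MYC (941 genes) and of -0.03 with E2F1 (2480 genes).

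When the 12321 genes with an E2F1 promoter peak were divided into deciles of E2F1 fold enrichment, 56 of 1241 genes (4.51%, interval 3.49 to 5.81) had a MYC peak in the weakest decile and 832 of 1232 (67.5%, 64.9 to 70.1) in the strongest. The share was higher in every decile than in the one below it, with 23.9% in the fifth and 53.5% in the ninth. The median MYC fold enrichment of the genes with a MYC peak went from 6.24 to 7.92 over the same range, and the interquartile ranges of these deciles (5.45 to 7.03 and 6.39 to 9.96) overlapped. The share of genes with a Fra-1 promoter peak lay between 15.6% and 22.97% in all deciles. Genes at or above the 75th percentile of E2F1 fold enrichment are called E2F1-strong and those at or below the 25th percentile E2F1-weak. MYC peaks were called at 1752 of 3081 E2F1-strong genes (56.9%) and at 234 of 3085 E2F1-weak genes (7.59%). Just inside the upper threshold lay PEX6 (E2F1 fold enrichment 32.4655), ANKRD11 (32.4705) and CHCHD7 (32.487), and just outside it USP34 (32.4509) and RBM8A (32.4498), among which PEX6 had a MYC peak.

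**Figure D1:**
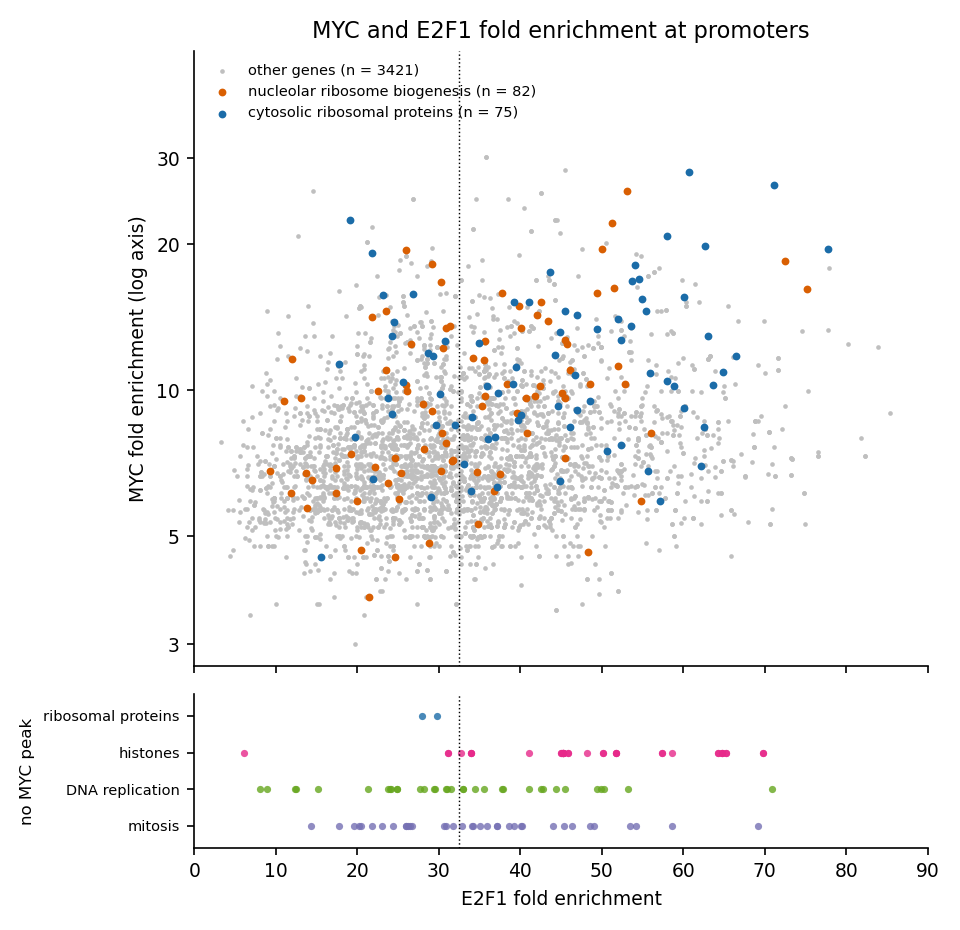
Upper panel, MYC (y axis, log scale) against E2F1 (x axis) fold enrichment of the strongest promoter peaks of 3578 genes with both peaks, 1 point per gene, with ribosomal protein genes in blue, ribosome biogenesis genes in orange and the E2F1-strong threshold as a dotted line. Lower panel, E2F1 fold enrichment of the genes of 4 lists without a MYC peak, among which only 2 ribosomal protein genes appear, both left of the threshold.

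**Figure D2:**
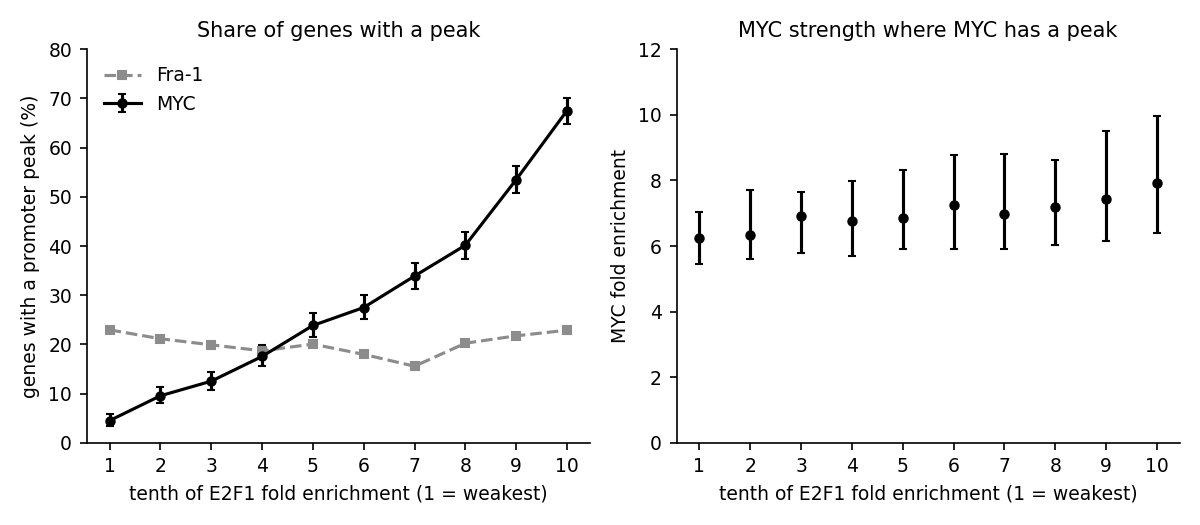
Left, percentage of genes with a MYC promoter peak (black, 95% Wilson intervals) or a Fra-1 promoter peak (grey) in deciles of E2F1 fold enrichment. Right, median and interquartile range of MYC fold enrichment among the genes with a MYC peak, which rises from 6.24 to 7.92 while the share on the left rises from 4.51% to 67.5%.

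E2F1 pileups were limited at the top. With 1 tag kept per position, the scaled pileup could not exceed 135 and reached 134, and 157 genes had a pileup of at least 90% of this ceiling. The share of genes near the ceiling was 5.02% among E2F1-strong genes with MYC and 3.54% among those without. The E2F1-strong groups differed little in composition at the summit. The median G+C content within 50 bp was 65.3% with MYC and 64.4% without, the observed-to-expected CpG ratio 0.844 and 0.832, and the input background 1.97 and 1.98 fragments. E2F1 itself was stronger where MYC was present, with a median of 42.3 against 38.4, and its peaks were wider, with a median of 984 bp (956 to 1011) against 818.5 bp (796 to 848). A Fra-1 peak was found at 27.8% (25.5 to 30.3) of the E2F1-strong summits with MYC and at 18.3% (16.1 to 20.8) of those without. The part of peak width and Fra-1 in the difference was not tested.

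Among the strongest E2F1 promoters with MYC, GADD45B, a growth arrest gene of the stress response, had the highest E2F1 fold enrichment (85.4, at chr19:2475705-2477614) with a MYC value of 8.96. It was followed by the immediate early gene IER2, with 83.9 for E2F1 and 12.3 for MYC, although the MYC summit lay 816 bp upstream of that of E2F1. TLCD3B and the overlapping ENSG00000285043 shared 1 peak of each factor, with 82.3 for E2F1 and 7.32 for MYC. COX8A, which encodes a subunit of cytochrome c oxidase, had values of 81.8 and 7.97, and its summits were 1 bp apart. RNPS1, a splicing activator, had 80.3 and 12.5. HSP90AB1, the constitutive cytosolic HSP90, had 77.8 and 17.9. LONP1, a mitochondrial protease, shared its E2F1 peak of 77.8 with the ribosomal protein gene RPL36. The summit of this peak lay 4242 bp downstream of the nearest LONP1 TSS, so that only the edge of the peak reached its window. The strongest MYC summit of LONP1 (13.3) lay 29908 bp upstream of that E2F1 summit. Among these, MYC values ranged from near the median of all shared promoters to the uppermost part of its range.

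The genes highest for both factors at once included 3 ribosomal protein genes, RPL29, RPL36 and RPLP2. Ordered by the larger of a gene's ranks for the 2 factors, the leaders were RPL29, RPL36, NPM1, HSP90AB1, NCL, the divergent pair PIDD1 and RPLP2, and AARSD1. RPL29, a protein of the large subunit, had 71.1 for E2F1 and 26.5 for MYC. NPM1, which encodes the nucleolar chaperone nucleophosmin, had 72.5 and 18.5, and nucleolin (NCL) had 75.1 and 16.1. AARSD1, an alanyl-tRNA editing protein gene, had 65.5 and 14.9. The rank correlation of the factors was 0.22 over the 75 ribosomal protein genes with both peaks and 0.45 over the 82 ribosome biogenesis genes.

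A strong MYC peak in genes whose E2F1 peak was at or below the median of E2F1 promoters was seen at KLF16, RPL10A, LARP1, TTC3, the pair SNX5 and MGME1, RPL38 and RNF44. KLF16, a zinc finger repressor gene, had 25.8 for MYC and 14.5 for E2F1, with summits 2 bp apart and an E2F1 pileup of 28. RPL10A had 22.4 for MYC and 19.04 for E2F1, but its E2F1 pileup was 132, and its low fold enrichment went with an input background of 6.99 fragments. SNX5 and MGME1 (pileup 125, background 5.97) and RPL38 (pileup 107, background 4.96) were alike in this respect. KLF16, LARP1, TTC3 and RNF44 had E2F1 pileups of 64 or less. At TTC3 the peaks came from different start sites, with the MYC summit 122809 bp downstream of that of E2F1. The genes with MYC and no E2F1 promoter peak included FLT4, SDK2, ZDHHC8, P2RX3, LHFPL2, PLA2G1B, KCNG3 and PERM1. The MYC values of these named genes lay between 5.46 (LHFPL2) and 7.68 (PLA2G1B), none of them in the uppermost quartile of MYC.

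Among the strongest E2F1 promoters without a MYC peak, TMSB4X, which encodes the actin-binding thymosin beta 4, came first with 81.3. SAT1, the polyamine acetyltransferase gene, and the overlapping ENSG00000288706 shared a peak of 76.2. ZFP36, which encodes an RNA-binding protein that promotes mRNA decay, had 75.9 and TNFRSF10D, a TRAIL decoy receptor gene, 75.8. SLC35G6 had 73.3 through a peak that it shared with its neighbour POLR2A, the largest subunit of RNA polymerase II, for which a MYC peak of 6.70 was within the window. The summit of this E2F1 peak lay 2959 bp downstream of the nearest SLC35G6 TSS, so that only the edge of the peak reached its window. RFC5, a clamp loader subunit of the replication machinery, had 70.9, and the divergent histone genes H2AC14 and H2BC14 had 69.8. TMSB4X lay within the range of the strongest promoters with MYC named above, and the others lay below it.

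Some function lists differed from all E2F1-strong genes in their share with MYC, and others did not. All 55 E2F1-strong genes of cytosolic ribosomal proteins had a MYC peak (interval 93.5 to 100%), against 56.9% of all E2F1-strong genes. Of the 77 with an E2F1 peak of any strength, 75 had MYC, against 53.3% of all genes in the same deciles of E2F1 strength. The exceptions were RPL28 and RPS20, with E2F1 values of 29.7 and 27.9. Outside these 77, RPS18 was among the listed genes with a peak of neither factor. The median MYC fold enrichment of the 75 genes was 10.9, against 7.22 for all genes with a MYC promoter peak, and 34 of the 75 (45.3%) were in the top decile of MYC, against 10.0% of all. RPL5 had the highest MYC value of the list (28.2), with 60.7 for E2F1.

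Ribosome biogenesis genes came close to this. Of 43 that were E2F1-strong, 40 had a MYC peak (93.0%, 81.4 to 97.6), and TAF1B, NSUN5 and KRR1 did not. TAF1B encodes a subunit of the RNA polymerase I initiation factor, and its E2F1 value was 55.2. MYC was present at 82 of the 104 genes with an E2F1 peak, against 40.1% of genes in the same deciles, and also at 5 of the 6 that were E2F1-weak, namely BOP1, PES1, PNO1, TCOF1 and UTP3. The highest MYC values were those of PPAN, with 25.7 for MYC and 53.1 for E2F1, and GNL3, with 22.1 and 51.2. Translation initiation factors followed with 22 of 23 E2F1-strong genes, led for MYC by EIF3D (20.1), and only EIF3J (E2F1 32.5) lacked a MYC peak. Chaperones had MYC at 19 of 22, without it at HSPA5 (37.7), the chaperone of the endoplasmic reticulum, BAG3 and PFDN2. Among aminoacyl-tRNA synthetases and their partners MYC was at 15 of 19 (78.9%, 56.7 to 91.5), with YARS1 at 25.5.

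Splicing genes had MYC at 34 of 46 E2F1-strong promoters (73.9%, 59.7 to 84.4). SNRPB, a core protein of the spliceosomal particles, had 74.5 for E2F1 and 13.3 for MYC, while HNRNPA2B1 had 56.7 for E2F1 and no MYC peak. In nucleotide synthesis, 15 of 20 had MYC (75.0%, 53.1 to 88.8). CTPS1 (CTP synthase) had 56.0 for E2F1 and 13.1 for MYC, and RRM1, which encodes the large subunit of ribonucleotide reductase, had 53.4 and 8.38. DUT, the dUTPase gene, had 53.0 and no MYC peak. In glycolysis MYC was found at 12 of 17, with ENO1 (enolase, 59.8 and 16.9) and LDHA (lactate dehydrogenase, 57.9 and 8.15) among them, and TPI1, PGAM1, PGK1 and PFKFB4 among those without. Mitochondrial ribosomal proteins (21 of 34, 61.8%), the proteasome (16 of 26, 61.5%), the respiratory chain (15 of 29, 51.7%) and RNA polymerases II and III (9 of 18) had intervals that included the share of all E2F1-strong genes, as did aminoacyl-tRNA synthetases, nucleotide synthesis and glycolysis (46.9 to 86.7%).

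Cell cycle genes included strong E2F1 promoters with and without MYC. All 57 genes of the DNA replication list had an E2F1 promoter peak and 35 were E2F1-strong, of which 19 had MYC (54.3%, 38.2 to 69.5). With MYC stood PCNA, the sliding clamp (E2F1 67.6, MYC 6.63), RFC2 (65.9, 4.56), MCM4 (64.6, 6.14) and TOPBP1 (59.8, 9.05). Without MYC stood RFC5, GINS1 (53.2), PRIM1 (50.3) and MCM5 (49.9). The median MYC value of the list was 6.14, below the 7.22 of all genes with MYC, although its E2F1 median of 37.8 was above the 22.02 of all genes with an E2F1 peak. Genes of the G1/S transition had MYC at 10 of 13 E2F1-strong promoters (76.9%, 49.7 to 91.8), including CCND1 (cyclin D1, 66.05 and 7.14) and CDC25A (63.9 and 6.63), while the E2F1 gene itself, SKP2 and LIN52 had none. In DNA repair, 19 of 26 had MYC (73.1%, 53.9 to 86.3), such as RAD54L (62.2 and 9.92), and UBE2T (60.1), FANCG (46.7), DDB2 (42.7) and FANCD2 (40.6) were the highest of those that did not. The intervals of DNA replication, G1/S and DNA repair all included the 56.9% of all E2F1-strong genes. Over E2F1 peaks of any strength, their MYC shares were 40.4%, 39.4% and 49.2%. The shares of all genes in the same deciles were 47.8%, 38.5% and 40.9%, respectively.

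Histone genes lay far below the share of all E2F1-strong genes, and mitotic genes less clearly so. Of 33 E2F1-strong genes of mitosis and the kinetochore, 13 had MYC (39.4%, 24.7 to 56.3). The upper end of this interval was only just below the 56.9% of all E2F1-strong genes. Of the 58 with an E2F1 peak of any strength, 22 had MYC (37.9%), against 46.6% of all genes in the same deciles. This difference was smaller and was not tested. BIRC5 (survivin) had 66.3 for E2F1 and 10.3 for MYC, and KIF23 and MAD2L1 also had both. CDC20, the activator of the anaphase-promoting complex, had 69.1 for E2F1, FOXM1, a transcription factor of the late cell cycle, 54.2 and CDC25C 53.5, all without a MYC peak. Of the replication-dependent histone genes, 37 of 63 had an E2F1 peak, with a median of 48.2, and 34 were E2F1-strong. A single gene of these 34, H4C8, had a MYC peak (2.94%, 0.521 to 14.9), with 52.2 for E2F1 and 6.75 for MYC. It was also the only one among the 37 with an E2F1 peak, against 61.01% of all genes in the same deciles of E2F1 strength. Among histone genes that share no peak, the share of E2F1-strong genes with MYC was 12.5%, with H4C8 as the only gene with MYC. Among all genes that share no peak, the share of E2F1-strong genes with MYC was 49.0%. Histone genes are clustered and often divergent, so that the 34 genes share 20 E2F1 peaks, and multi-mapping reads had been removed. H1-4, a linker histone gene, had an E2F1 value of 65.3 and no MYC peak. Zinc finger genes of chromosome 19 had MYC at 20 of 44 E2F1-strong promoters (45.5%, 31.7 to 59.9, which includes the share of all), among them ZNF274 (62.6 and 7.31), and ZNF160 (49.0) had none.

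Several lists kept their side of the share of all E2F1-strong genes in every setting in which lists were compared, all of which used the same peak lists. In 10 settings each, ribosomal proteins, ribosome biogenesis, initiation factors, chaperones, aminoacyl-tRNA synthetases, nucleotide synthesis, splicing and mitochondrial ribosomal proteins lay above it in 10, and mitosis, histones and the respiratory chain in 0. DNA replication lay above it in 2, the proteasome in 7 and DNA repair in 8, so their side depended on the setting. The respiratory chain came close to it with equal numbers of peaks of both factors (66.7% against 67.4%) and in the strongest decile (66.7% against 67.6%).

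**Figure D3:**
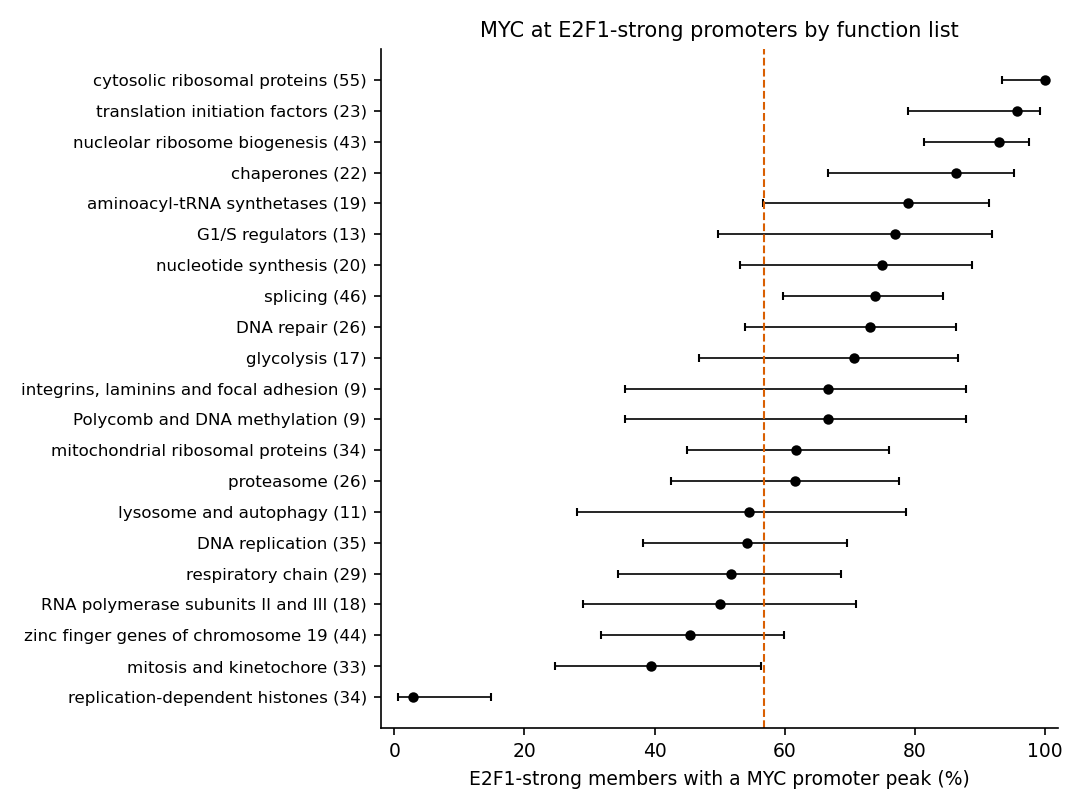
Percentage of E2F1-strong genes with a MYC promoter peak (x axis) for the function lists with at least 9 E2F1-strong members, whose number is in parentheses, with 95% Wilson intervals. The dashed line marks all E2F1-strong genes (56.9%), and ribosomal proteins (100%) and replication-dependent histones (2.94%) lie at opposite ends.

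The lists of cell identity were thinly represented. Of 414 olfactory receptor genes, silent in epithelial cells, 1 had an E2F1 promoter peak (OR5H14, 5.70) and 0 had MYC. Of 55 keratin genes, 11 had an E2F1 promoter peak, with a median of 12.7, and 0 had MYC. The epithelial keratin genes KRT8, KRT18 and KRT19 were the 3 E2F1-strong members (40.3, 40.3 and 61.8), and KRT8 and KRT18 shared 1 peak. In the AP-1 family, FOSL1, which encodes Fra-1, had 61.9 for E2F1 and 15.2 for MYC, with summits 904 bp apart, and JUNB had 61.3 and 11.1. JUN (63.6), JUND (46.2), ATF3 (39.8) and MAFF (33.5) had no MYC peak. Of the 9 genes whose silencing impaired metastatic growth in the study, SFN (14-3-3 sigma, 64.6 and 5.53), ADORA2B (an adenosine receptor, 38.9 and 8.67) and PAICS (a purine synthesis enzyme, 28.5 and 11.4) had both factors. The E2F1 gene (46.6), ABHD11 (36.8), SH3GL1 (24.0), EZH2 (24.0), IGFBP3 (15.6) and PTP4A1 (15.4) had an E2F1 peak and no MYC peak. The study describes coordinated promoter binding of its TFs, MYC among them, at the 9 genes. MYC was called here at 3 of the 9 genes (33.3%), against 40.7% of all genes in the same deciles of E2F1 strength. The absence of a called MYC peak at the genes from E2F1 to PTP4A1 differs from that description. The study used its own assignment of peaks to genes, and the source of the difference was not tested. The MYC gene had 40.6 for E2F1 and no MYC peak.

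E-boxes were more frequent at E2F1-strong summits with MYC than at those without, whereas the shares with an E2F motif overlapped. The E-box was present within 50 bp of the E2F1 summit at 71 of 1340 E2F1-strong summits with a MYC peak in the promoter (5.30%, 4.22 to 6.63) and at 21 of 1058 without (1.98%, 1.30 to 3.02). Among all 10457 distinct E2F1 promoter summits the share was 3.47%, and at 19819 canonical TSSs it was 3.30%. The related CACGCG showed the same order, with 9.10% (7.68 to 10.8) and 5.39% (4.18 to 6.92). For the E2F motif the shares were 4.70% (3.69 to 5.97) with MYC and 5.95% (4.68 to 7.55) without, with overlapping intervals, compared with 3.24% of all E2F1 promoter summits and 1.38% of TSSs. The E-box difference was seen for strong promoters as a whole but not at their top. In the strongest decile the shares were 2.82% with MYC and 2.59% without, while those of the E2F motif were 5.80% and 11.7%.

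**Figure D4:**
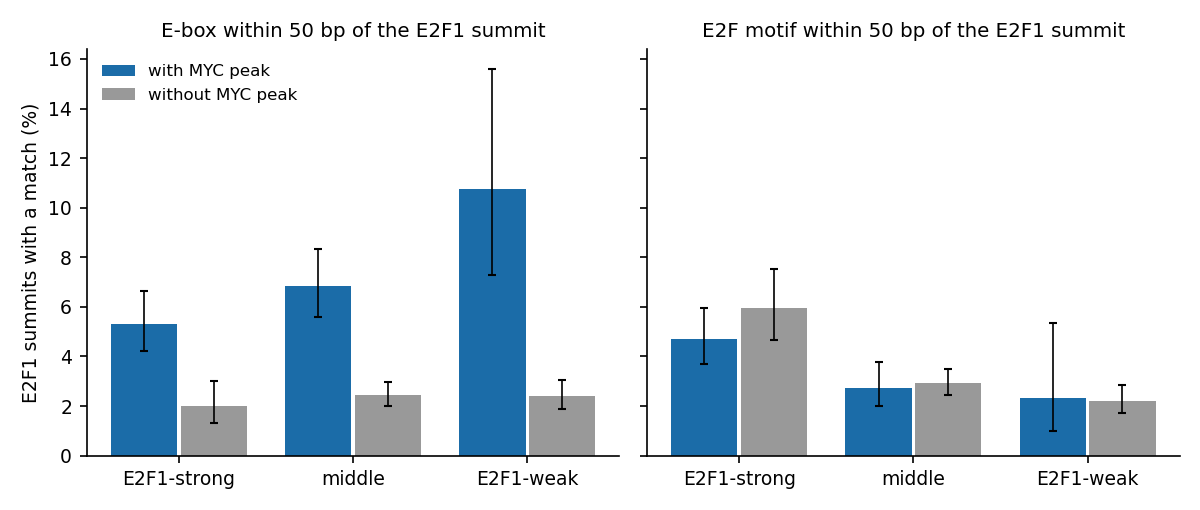
Percentage of distinct E2F1 summits with an E-box (left) or an E2F motif (right) within 50 bp, for promoters with (blue) and without (grey) a MYC peak in 3 classes of E2F1 strength, with 95% Wilson intervals. The E-box share of promoters with MYC is 5.30% in the E2F1-strong class and 10.7% in the E2F1-weak class, and without MYC it stays between 1.98% and 2.43%.

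At the MYC summits themselves, an E-box was present at 517 of 2827 (18.3%, 16.9 to 19.8). Its share was 14.6% where E2F1 was strong and 25.5% (20.1 to 31.7) where E2F1 was weak. It was 32.4% (28.6 to 36.4) in the quintile of MYC summits with the highest fold enrichment and between 10.0% and 17.8% in the other quintiles, with 13.7% (11.1 to 16.8) in the lowest. The function lists did not follow this relation with MYC strength alone. An E-box lay at the MYC summit of 26 of 82 ribosome biogenesis genes (31.7%, 22.6 to 42.4) and of 8 of 23 distinct summits of nucleotide synthesis genes (34.8%, 18.8 to 55.1). It lay at only 3 of 75 ribosomal protein genes (interval 1.37 to 11.1%), RPL19 and RPS2 among them, although the ribosomal protein genes had the highest median MYC value of the lists. Another 3 ribosomal protein genes, RPL14, RPL36 and RPL38, had an E2F motif there. CCGGAA, the core of ETS factor sites, was near the MYC summit of 34.1% (24.8 to 44.9) of biogenesis genes, compared with 15.5% of all MYC promoter summits. This was not particular to them, with 33.3% (20.2 to 49.7) of initiation factor genes and 27.3% (16.3 to 41.8) of splicing genes. The other lists searched had 14.7% or less.

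The E2F1 summits of cell cycle genes differed among themselves. An E2F motif was found at 15 of 57 summits of DNA replication genes (26.3%, 16.6 to 39.0) and at 11 of 59 of DNA repair genes (18.6%, 10.7 to 30.4), against 3.24% of all. Within DNA replication the share was 26.1% with MYC (6 of 23, 12.5 to 46.5) and 26.5% without (9 of 34, 14.6 to 43.1), intervals too wide to exclude a difference either way, and CDC6, GINS3, MCM2, ORC3, POLD1 and TOPBP1 were those with both the motif and MYC. At the E2F1 summits of mitotic genes, the E2F motif was present in 2 of 58 (3.45%), CCAAT in 26 (44.8%, 32.7 to 57.5) and TTTGAA in 24 (41.4%, 29.6 to 54.2), compared with 10.4% and 3.12% of all E2F1 promoter summits. CCAAT and TTTGAA occurred together at 6 of 22 mitotic summits with MYC, such as PLK1, AURKB and KIF23, and at 9 of 36 without, such as TPX2, KIF11 and KIF4A. The intervals of these shares, 13.2 to 48.2% and 13.8 to 41.1%, overlapped. At the E2F1 summits of ribosomal protein genes, an E2F motif was present in 1 of 77, TTTGAA in 1 (each with an interval of 0.230 to 7.00%) and CCAAT in 9 (11.7%), with intervals that included the shares of all E2F1 promoter summits. CCGGAA (23.4%, 15.3 to 34.0) and AAGATGGC (10.4%, 5.36 to 19.2) lay above the 12.9% and 2.77% of all. Mitochondrial ribosomal protein genes (27.6% and 11.8%) and ribosome biogenesis genes (29.8% and 9.62%) had similar shares of these motifs.

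The summits of both factors lay close together at most shared promoters. Over 2901 distinct pairs of peaks, the median distance between summits was 124 bp (113 to 138), with an interquartile range of 38 to 456 bp. The summits were within 100 bp in 45.7% of the pairs (43.9 to 47.5), within 250 bp in 62.9% and within 1 kb in 85.9%. The peaks overlapped in 2245 pairs (77.4%), with a median of 72 bp. Summits of 225 pairs were further apart than the window of a single TSS, because genes with distant start sites, such as LONP1 and CCND3, took their peaks from different promoters. Distances were shorter where E2F1 was strong, with a median of 90.5 bp (78 to 104), than in the middle class (159 bp, 139 to 185) or where it was weak (321 bp, 177 to 418). They were also shorter with 1 E2F1 peak in the window (85 bp, 76 to 96) than with more (170 bp, 146 to 192). Taking the E2F1 summit nearest to that of MYC instead of the strongest gave a median of 73 bp. Pairs with an E-box at the MYC summit were further apart (217 bp, 169 to 272) than those without (110 bp, 101 to 122).

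MYC lay downstream of E2F1, in the direction of transcription, in 1526 of the 2901 pairs (52.6%, 50.8 to 54.4). For pairs shared by divergent genes the direction was that of the gene first in alphabetical order, and in the 2278 pairs that belong to 1 gene it was 53.7%. Ribosomal protein genes stood apart from this near balance. MYC was downstream in 59 of 75 (78.7%, 68.1 to 86.4), with a median distance of 84 bp (66 to 118). The median position of the E2F1 summit was 1 bp and that of the MYC summit 31 bp downstream of the nearest TSS. RPL5 (129 bp), RPS7 (85 bp) and RPL29 (56 bp) followed this order. In DNA replication genes MYC was downstream in 6 of 23 (26.1%, 12.5 to 46.5), and it lay upstream of E2F1 at PCNA (38 bp), MCM4 (188 bp) and RFC2 (201 bp). The median positions in this list had the opposite order. The MYC summit lay 12 bp downstream and the E2F1 summit 9 bp upstream, each relative to its own nearest TSS. Ribosome biogenesis genes had a median of 74.5 bp, and at GNL3 and PPAN the summits were 6 and 7 bp apart. No test was made of the differences between lists.

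**Figure D5:**
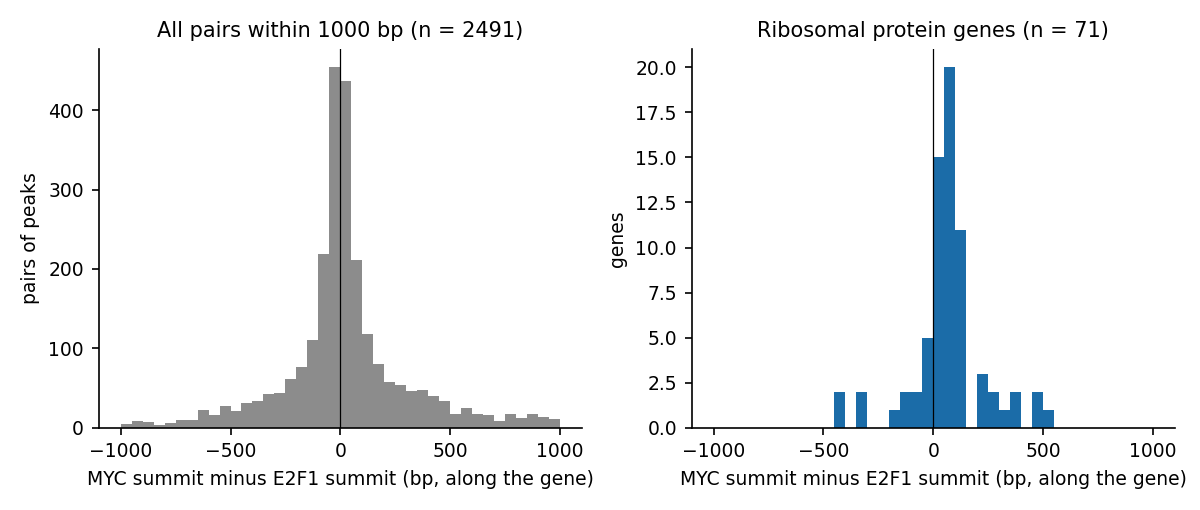
Distance from the E2F1 summit to the MYC summit along the gene (x axis, bp, positive values downstream) for all pairs of strongest peaks within 1000 bp (left) and for ribosomal protein genes (right), in bins of 50 bp. All pairs centre on 0, and the ribosomal protein genes lie mostly to the right of 0.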

How the data were processed

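MYC, E2F1 and Fra-1 peak lists of LM2 cells were used, with 1 library per factor. EZH2 and one more TF of the study were not analysed here. The authors trimmed reads, aligned unique reads to a masked hg19 genome, removed duplicates and called peaks with MACS2 2.0.10.20120913 at a q-value of 0.01 against the same input of 10758036 filtered tags. The deposited signal is the summit pileup scaled to the smaller library, the deposited fold enrichment is the ratio of pileup to local background with a pseudocount of 1, and q-values were deposited as −log10. Since MYC and E2F1 differ in depth and fragment length, fold enrichment was compared by rank. TSSs came from GENCODE 44 mapped to GRCh37. A peak counted from 1 bp of overlap. Both strands of the sequence within 50 bp of each distinct summit were searched for motifs, and matches of different motifs could overlap. Motifs other than the E-box, E2F and AP-1 were added after seeing the data. Intervals are 95% Wilson intervals, and order-statistic intervals for medians.

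The genes, the 28 function lists and the comparisons were chosen with earlier results of these data known. Genes named are those with the highest E2F1 values with and without MYC, the highest in both rankings, the highest MYC values at E2F1 promoters at or below the median, the highest members of each list, the 9-gene set, FOSL1, MYC, E2F1 and those nearest the threshold. Others were named after their values were seen, where a count was small. Assignment, spacing in genome coordinates and the E-box search were tested on simulated data, with 1000 of 1000 planted E2F1 assignments returned. Direction along the gene and the other motifs were not part of this test. Software was pysam 0.24.0, pandas 2.3.3, scipy 1.17.1, numpy 2.4.6 and matplotlib 3.10.9 under Python 3.11.15. Some genes are not reported here.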

Additional observations from a re-analysis of the deposited data

How the results depend on the processing

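No paired analysis was possible because each factor has 1 library. Values under settings that moved them beyond their interval were as follows, and unless the setting itself restricts the genes or peaks, the cause was not tested. The rank correlation was 0.36 by pileup, 0.16 with a −log10 q of at least 5, 0.16 with equal numbers of peaks, 0.15 over distinct overlapping pairs and 0.42 with genes without MYC set to 0. It was 0.18 after adjustment for G+C content and input background, within the interval of the main value. The MYC share of E2F1-strong promoters was 43.4% at −log10 q of at least 5, 51.9% when MYC had to overlap the strongest E2F1 peak, 54.5% with canonical TSSs, 67.4% with equal numbers of peaks, 54.8% at fold enrichment of at least 5, 49.0% for genes that share no peak, 54.6% by pileup, 44.5% for all genes above the E2F1 median and 67.6% in the strongest decile. The E2F1-weak share was 5.11% at −log10 q of at least 5, 35.7% with equal numbers, 6.201% for genes that share no peak and 9.04% by pileup. E2F1-strong genes without MYC numbered 421 with equal numbers of peaks, and 2052 genes with both peaks shared no peak. The median spacing was 103 bp with canonical TSSs, 104 bp with equal numbers, 73 bp to the nearest E2F1 summit, 72 bp for overlapping pairs and 112 bp in windows of 1 kb, and the corresponding shares within 100 bp were 49.4%, 49.0%, 59.2%, 59.0% and 47.5%. The E-box share with MYC was 3.29% with equal numbers, 9.48% in windows of 100 bp and 2.82% in the strongest decile, and without MYC it was 3.88% in windows of 100 bp. The E2F motif share with MYC was 7.76% in windows of 100 bp. Without MYC it was 11.7% with equal numbers, 4.35% for genes that share no peak, 7.94% in windows of 100 bp, 7.55% by pileup and 11.7% in the strongest decile. The other 100 values of these results stayed within their intervals or, for counts of genes, within 1.5 times the main count, such as 2510 genes with both peaks with equal numbers of peaks and 2547 at −log10 q of at least 5, and 1718 E2F1-strong genes without MYC at the latter. Of the shares of function lists, 122 stayed within their intervals and 18 did not. Genes without a called MYC peak may include genes with MYC binding too weak to be called in this library, in which 4867 peaks were called. The MYC library held more filtered tags than that of E2F1 (23853621 against 18056168). Its median fold enrichment over all peaks was lower (6.67 against 8.88).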

Other observations

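MYC peaks were unevenly distributed over the chromosomes among E2F1-strong genes, and these values were chosen after they were seen. The share with MYC was 69.2% (63.0 to 74.8) of 234 genes on chromosome 17 and 68.8% (63.0 to 74.0) of 272 on chromosome 19. It was 41.0% (29.5 to 53.5) of 61 genes on the X chromosome, 40.2% (32.0 to 48.9) of 127 on chromosome 7 and 43.6% (38.0 to 49.4) of 289 on chromosome 1. TMSB4X and SAT1, among the strongest E2F1 promoters without MYC, are both on the X chromosome. The number of gene copies per chromosome in LM2 cells was not measured here, and its part in these shares was not tested.

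Lysosomal and autophagy genes had MYC at 6 of 11 E2F1-strong promoters (54.5%, 28.0 to 78.7), near the 56.9% of all, with SQSTM1, an autophagy receptor gene, at 69.2 for E2F1 and 11.3 for MYC. Of integrins, laminins and focal adhesion genes, 44 of 62 had an E2F1 peak with a median of 19.8, and 9 were E2F1-strong, of which 6 had MYC (66.7%, 35.4 to 87.9, which includes the share of all). Those 9 included FLNA (44.3 and 9.96), CD44 (42.0 and 5.86) and LAMB3 (42.1, no MYC peak). In the Polycomb and DNA methylation list, DNMT1, the maintenance methyltransferase gene, had 60.2 and 5.91, and EZH1 had 52.0 with no MYC peak. Of the E-box clock genes, CSNK1D (42.1 and 9.30) and TIMELESS (45.5, no MYC peak) were the E2F1-strong members. MNT, a MAX partner that opposes MYC, had 28.1 for E2F1 and 12.2 for MYC.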
